A study of Mus musculus with 60 samples.

Results

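The mRNA of 9 transporter genes of the mouse hepatocyte was followed, the uptake carriers Slco1a1, Slco1a4, Slco1b2, Slco2b1 and Slc22a7 and the ATP-driven exporters Abcc2, Abcc3, Abcc4 and Abcb4. They were taken by name, with earlier results of these data known, and all 9 were present among the 19355 gene symbols of the cell culture data and the 17473 of the liver data. The study asked how primary hepatocytes change when interleukin 6 (IL6) turns them into expandable progenitor-like cells, and how liver transcripts change during regeneration. RNA sequencing was done on 60 samples, of which 33 cell samples in 11 groups and 18 liver samples in 6 groups, 3 samples each, carry these genes.

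All samples are labelled wild-type C57BL/6. The methods give an age of 8 to 10 weeks for the C57BL/6J mice used for hepatocyte isolation and for partial hepatectomy. Hepatocytes were primary cells isolated from liver. IL6-iHPCs-D3 (P0) and IL6-iHPCs-D14 (P0) are hepatocytes after 3 and 14 days in medium with IL6, EGF, HGF and dexamethasone. The labels do not say whether they came from the preparation sequenced as hepatocytes. The passaged IL6-iHPCs are the lines mouse-1 at passage 10 and passage 35, mouse-2 at passage 10 and clone-1 at passage 20. Clone-1 carries the name of a line raised from a single hepatocyte, and the study describes such lines as coming from crosses of Albumin-Cre with R26R-tdTomato mice, an origin that the labels do not give. Both mouse-1 groups come from 1 line, so the 4 passaged groups are not 4 independent donors. IL6-iMHs carry the names of the same lines and are described as kept for 7 days in a maturation medium without IL6, EGF and HGF. It contains oncostatin M and more dexamethasone than the medium with IL6. For clone-1, Y-linked transcripts described below set the libraries before and after maturation apart. Normal liver was compared with liver taken 6 hours, 24 hours, 3 days, 7 days and 14 days after a partial hepatectomy that removes most of the organ (PHX-6h to PHX-D14). The study describes the samples of a cell group as technical repeats, so p-values from them cover technical spread, and nothing in the labels says which liver samples come from separate animals. With 3 samples on each side, an exact permutation test goes no lower than p = 0.1, so tests come from limma fitted across all genes.

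Hepatocytes clear drugs, bile acids and steroid conjugates in steps. Carriers of the Slco family (organic anion transporting polypeptides) and of the Slc22 family take these compounds up from sinusoidal blood. After metabolism, exporters of the Abc family move them out, either across the canalicular membrane into bile, as ABCC2 (MRP2) does for conjugates and ABCB4 (MDR2) does for phosphatidylcholine, or back into blood across the basolateral membrane, as ABCC3 and ABCC4 (MRP3 and MRP4) do. Slco1a1, Slco1a4 and Slco1b2 encode carriers with overlapping substrates, Slco2b1 encodes a widely expressed one, and Slc22a7 encodes OAT2, an organic anion carrier. The basolateral exporters are known to increase in cholestatic liver, and Slco1a1 is known to be expressed more in male than in female mouse liver.

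Slco1b2, Slco1a4 and Slco1a1 lie in this order within one cluster of Slco1 genes on chromosome 6 (GRCm38, chr6:141629452-141686646, chr6:141805438-141856284 and chr6:141907281-141946962). Slco2b1 is at chr7:99657804-99711340, Slc22a7 at chr17:46432185-46438477, Abcc2 at chr19:43782308-43838332, Abcc3 at chr11:94343295-94393017, Abcc4 at chr14:118482692-118707856 and Abcb4 at chr5:8893614-8959226. Start windows of 300 bases, from the RefSeq annotation of GRCm38.p6, were found for 7 of the 9 genes. The 4 windows printed here belong to genes that moved apart: a Slco1 gene that returned on maturation and one that stayed low, and a canalicular and a basolateral exporter. Each runs 5′ to 3′ along its gene, and capitals mark matches to any of 6 short motifs known from promoters of liver and stress genes.
Slco1a1 (chr6:141946913-141947212, minus strand): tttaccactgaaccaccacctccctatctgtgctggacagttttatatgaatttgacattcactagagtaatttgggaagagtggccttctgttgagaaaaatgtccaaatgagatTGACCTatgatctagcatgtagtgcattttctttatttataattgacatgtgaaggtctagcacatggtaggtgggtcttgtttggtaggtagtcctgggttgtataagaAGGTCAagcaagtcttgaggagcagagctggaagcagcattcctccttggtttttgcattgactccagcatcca
Slco1b2 (chr6:141629268-141629567, plus strand): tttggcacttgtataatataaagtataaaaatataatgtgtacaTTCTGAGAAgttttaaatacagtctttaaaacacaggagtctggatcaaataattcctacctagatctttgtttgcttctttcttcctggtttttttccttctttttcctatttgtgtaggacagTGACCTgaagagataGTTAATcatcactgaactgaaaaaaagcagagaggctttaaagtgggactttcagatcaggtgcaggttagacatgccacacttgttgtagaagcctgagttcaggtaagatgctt
Abcc2 (chr19:43782058-43782357, plus strand): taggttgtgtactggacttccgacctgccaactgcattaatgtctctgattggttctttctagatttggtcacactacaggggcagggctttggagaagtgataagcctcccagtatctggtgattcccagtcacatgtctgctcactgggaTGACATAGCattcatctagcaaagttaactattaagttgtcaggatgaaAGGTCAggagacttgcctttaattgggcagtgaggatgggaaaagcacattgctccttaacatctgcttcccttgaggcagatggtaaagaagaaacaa
Abcc4 (chr14:118706170-118706469, minus strand): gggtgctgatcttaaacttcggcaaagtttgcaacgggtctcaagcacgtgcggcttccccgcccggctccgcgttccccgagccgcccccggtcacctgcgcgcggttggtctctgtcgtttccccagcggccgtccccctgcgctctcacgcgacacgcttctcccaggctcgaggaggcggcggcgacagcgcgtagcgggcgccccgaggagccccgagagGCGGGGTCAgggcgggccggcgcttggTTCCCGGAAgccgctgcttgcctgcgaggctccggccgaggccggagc

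Both strands were searched. The nuclear receptor core site AGGTCA stood in the Slco1a1 window in 2 copies, 134 bases and 24 bases before the start, and in 1 copy in the windows of Slco1b2 and Abcc2, and 16.3% of all 32851 windows held it. Slco1b2 also held GTTAAT, a part of the HNF1 site, found in 7.10% of windows, and TTCNNNGAA, the core of a STAT site, found in 8.30%. The antioxidant response element core TGACNNNGC, found in 12.4% of windows, stood in Abcc2 98 bases before the start and in Abcc4 25 bases before the start. Abcc4 also held a STAT core, as did 2 of the 3 windows of Slco2b1. The windows of Slco1a4 and Abcb4 held none of the 6 motifs, and none of the 7 genes matched the full HNF1 site, held by 3 windows in all, or the HNF4 site CAAAGTCCA, held by 0.475% of windows. GTTAAT lies within the full HNF1 site. These matches are letters in a window and were not tested for binding.

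Depth, as reads on genes recovered from the values, ranged from 49.3 M to 88.9 M per cell sample and from 52.1 M to 79.3 M per liver sample. Levels are FPKM, fragments per kilobase of transcript scaled to the depth of the sample, and differences are between means of log2(FPKM + 1), which understates changes of low genes. A gene was called at an adjusted p under 0.05 and a difference of at least 2-fold on that scale. The 10 genes with the most reads took 23.8% to 25.1% of reads in hepatocytes and 5.50% to 19.2% in passaged IL6-iHPCs. The median of all 12328 genes tested was 1.14 higher at day 3, 1.00 at day 14, 0.93 in the passaged lines and 0.46 in IL6-iMHs than in hepatocytes, and differences from hepatocytes stand against these medians. All 9 genes passed the filter on low values (at least 1 FPKM in 3 samples) in both tables, but in the cell data Slc22a7 passed only through the hepatocyte samples, so its fall there was fixed by the filter.

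The labels were checked against markers. The 7 hepatocyte markers summed to 74001 to 79856 FPKM in hepatocytes, 590.0 to 708 at day 3, 3819 to 4831 at day 14, 1822 to 9346 in passaged IL6-iHPCs and 59294 to 80658 in IL6-iMHs. Cyp2e1 was at 0 in 3 of the 4 passaged IL6-iHPC groups and Tat in 3, while all 7 were detected in IL6-iMHs. Against hepatocytes, 3 of the 7 were still called lower in IL6-iMHs and 0 higher (7.79% and 24.8% of all genes), with a median difference of -0.66. Without clone-1 these counts were the same. The 7 biliary markers summed to 10.7 to 12.6 FPKM in hepatocytes, 2745 to 10994 in passaged IL6-iHPCs and 216 to 1418 in IL6-iMHs. The 6 Kupffer cell markers summed to 9.82 to 11.95 FPKM in hepatocytes and to at most 0.346 in any cultured sample. The part of these cells in the results was not tested. In bulk samples, fewer cells of a type and less RNA per cell cannot be told apart.

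One pair of labels stood apart. Summed FPKM of 4 Y-linked genes (Ddx3y, Eif2s3y, Kdm5d and Uty) was 33.9 to 38.7 in IL6-iHPCs-clone-1 (P20), but all 4 genes were at 0 in the 3 libraries labelled IL6-iMHs-clone-1 (P20). The sum was at most 0.0157, or 2 reads, in the mouse-1 and mouse-2 libraries, 5.46 to 7.21 in hepatocytes and 53.4 to 81.4 in the P0 cultures. Every cultured group thus differed from hepatocytes in this sum, and its part in the comparisons with hepatocytes was not tested. The libraries labelled clone-1 before and after maturation thus differed in the expression of the Y chromosome, and the counts over the lines are given with and without them. Among livers, PHX-D3 replicate 2 stood apart and is described with the liver results.

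All 5 uptake carriers fell in culture, whereas Abcc4 rose and Abcc2 and Abcc3 differed from hepatocytes by less than 2-fold in the means. At day 3, 6 of the 9 genes were lower than in hepatocytes and 1 was higher, where 66% of all genes tested were called, 12.1% as lower and 53.9% as higher. At day 14 the counts were again 6 lower and 1 higher (62.9% of all genes called, 12.9% as lower and 50% as higher), as in passaged IL6-iHPCs (59.4% called, 11.3% as lower and 48.1% as higher), also without clone-1 (58.5% called). The count of 6 includes Slc22a7, for which the filter fixed the direction, so 5 of the falls do not rest on it. The median difference of the 9 genes was -3.53 at day 3, -3.38 at day 14 and -3.98 in passaged IL6-iHPCs. These comparisons share the 3 hepatocyte samples.

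**Figure D1:**
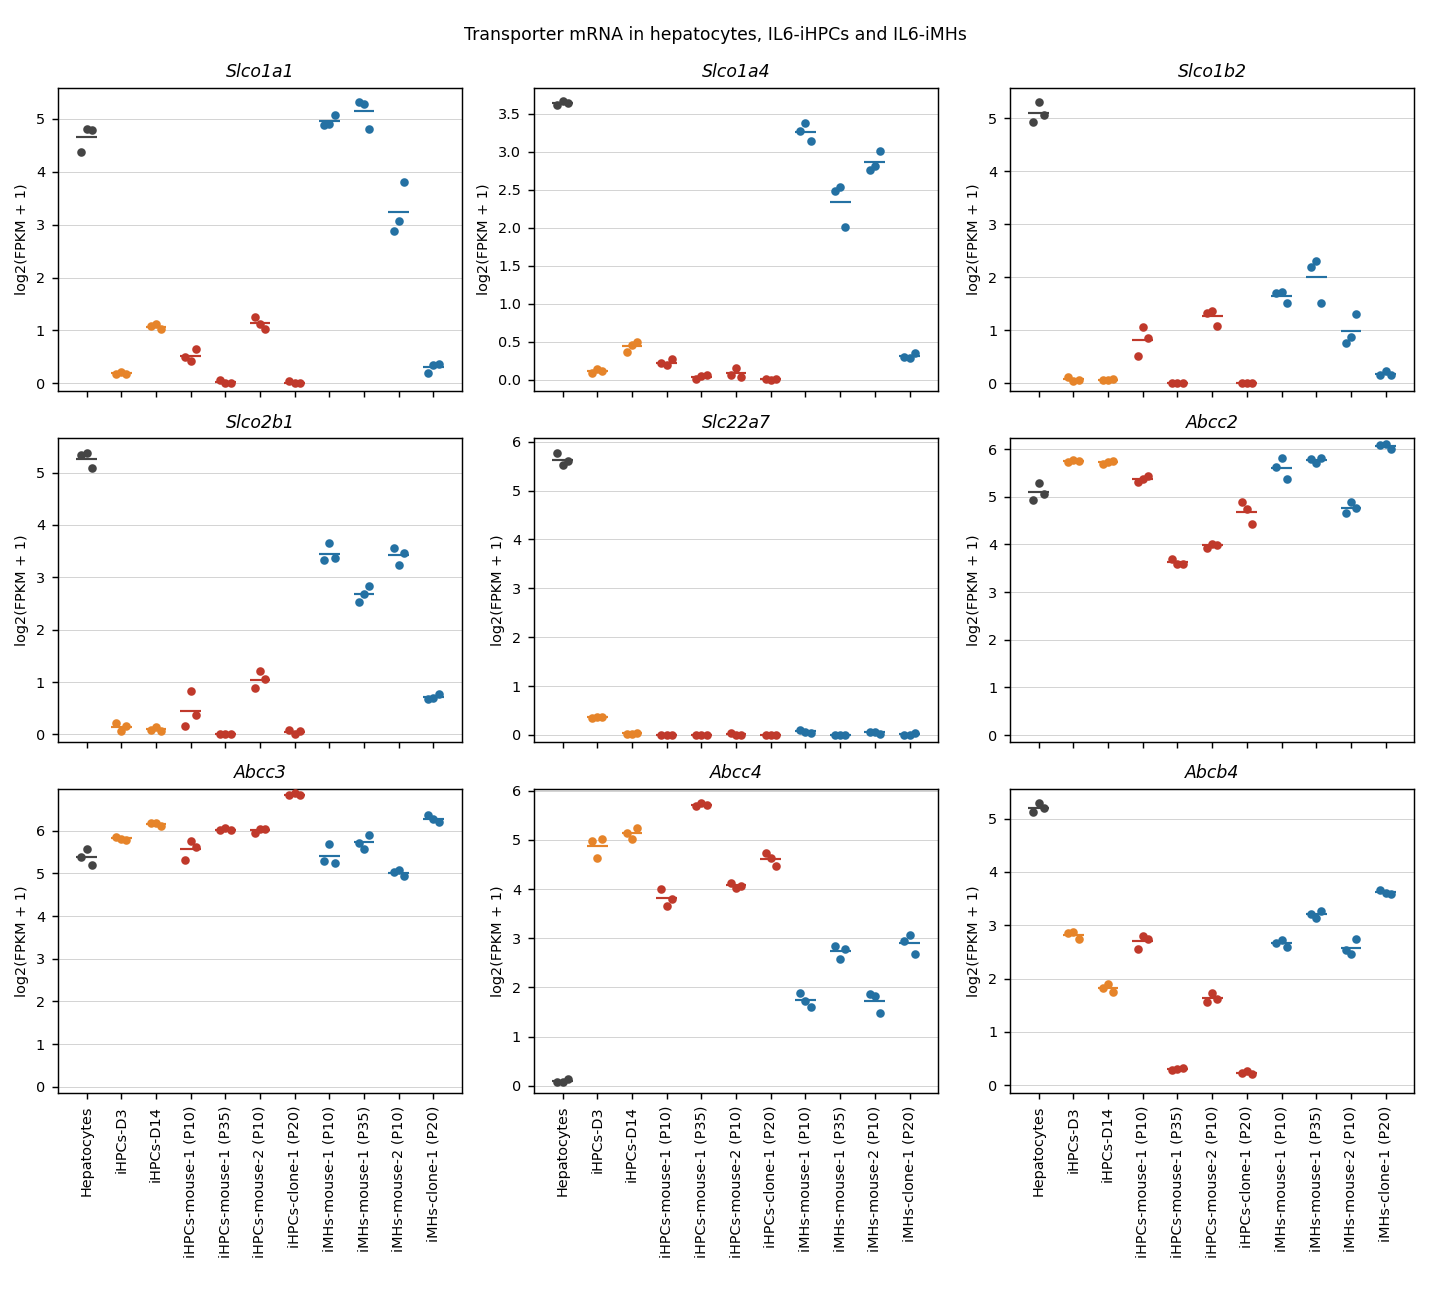
Level of each transporter gene in the 33 cell samples, as log2(FPKM + 1) on the y axis, with 1 point per sample, a line at each group mean and the 11 groups on the x axis. Slc22a7 is high in hepatocytes only, Abcc2 and Abcc3 are high in every group, and Abcc4 is highest in the 6 IL6-iHPC groups.

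Summed FPKM of the 5 uptake genes was 156 ± 6.17 (SD, n = 3) in hepatocytes, 0.676 ± 0.0474 at day 3 and 1.61 ± 0.0961 at day 14. In passaged IL6-iHPCs the sum lay between 0.0155 and 4.17 over the 12 samples. The 4 exporter genes summed to 103 to 123 FPKM in hepatocytes and to 93.4 to 168 in passaged IL6-iHPCs, where only mouse-1 (P10), at 96.8 to 112, overlapped with hepatocytes. The sums of mouse-2 (P10), 93.4 to 97.9, lay below, and those of mouse-1 (P35), 126 to 129, and clone-1 (P20), 154 to 168, lay above. In IL6-iMHs the carriers summed to 48.3 to 52.3 in mouse-1 (P10), 38.1 to 52.0 in mouse-1 (P35) and 22.7 to 31.7 in mouse-2 (P10), but to at most 1.41 in clone-1 (P20).

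**Figure D2:**
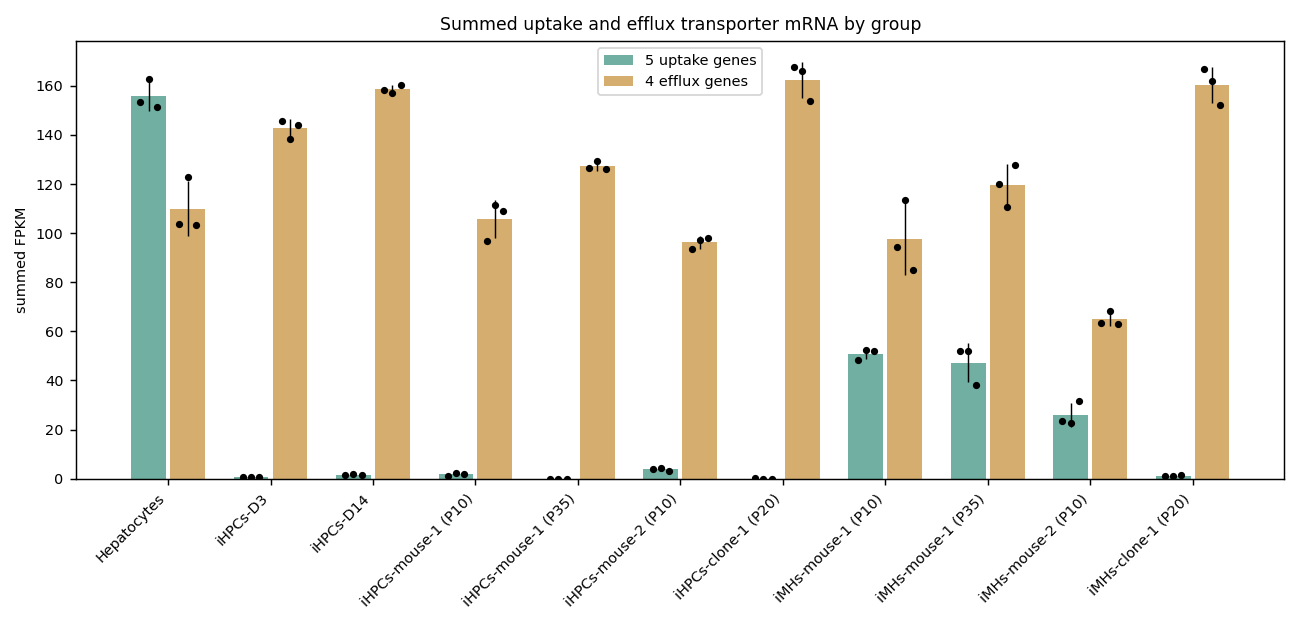
Summed FPKM (y axis) of the 5 uptake and the 4 efflux genes in the 11 cell groups (x axis), with means as bars, SD as error bars and the 3 samples as points. The uptake sums are near 0 in all IL6-iHPC groups and in matured clone-1, while mean efflux sums stand between 64.9 and 163 in every group.

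Slco1a1, a sinusoidal carrier of bile acids and organic anions, was 19.7, 27.1 and 26.7 FPKM in the 3 hepatocyte samples, 0.137, 0.164 and 0.126 at day 3 and 1.12, 1.17 and 1.03 at day 14. It was lower in every P0 culture sample than in any hepatocyte sample, and higher at day 14 than at day 3 without overlap. The difference from hepatocytes was -4.47 ± 0.15 (SE) at day 3 (limma, adjusted p = 4.06e-22) and -3.59 ± 0.15 at day 14 (adjusted p = 1.11e-19). In passaged cells it was 0.349 to 0.563 FPKM in mouse-1 (P10) and 1.04 to 1.39 in mouse-2 (P10). It was at most 0.04095 FPKM in mouse-1 (P35), and clone-1 (P20) had at most 0.0268.

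Slco1b2, the liver-restricted carrier of this family, was 29.3, 38.6 and 32.1 FPKM in hepatocytes, 0.0854, 0.0359 and 0.0457 at day 3 and 0.0455, 0.0399 and 0.0548 at day 14. The P0 cultures overlapped with each other and lay far below hepatocytes, with a difference of -5.02 ± 0.15 at day 3 (adjusted p = 1.39e-23). No read of Slco1b2 was found in the 6 libraries of the late mouse-1 passage (P35) and the IL6-iHPC clone, which allows up to 0.0121 to 0.0156 FPKM per library (3 reads), counting error only. In mouse-1 (P10) it was 0.432, 1.09 and 0.813 FPKM and in mouse-2 (P10) 1.52, 1.58 and 1.12.

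Slc22a7 was 53.9, 44.7 and 48.05 FPKM in hepatocytes, the highest mean among the 5 carriers there, and 0.2801, 0.287 and 0.291 at day 3. It was lower again at day 14, at 0.0187, 0.0187 and 0.02695 FPKM. Of the 12 passaged IL6-iHPC libraries, 11 held no read of it, and the other held 0.0348 FPKM, or 4 reads. The difference from hepatocytes was -5.27 at day 3 and -5.63 in passaged IL6-iHPCs, given without a test since the filter fixed its direction.

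Slco2b1 was 32.8 to 40.7 FPKM in hepatocytes, at most 0.163 at day 3 and at most 0.103 at day 14, and stood at 0 to 1.301 in passaged cells. Slco1a4, a carrier also known from the blood-brain barrier, was 11.3 to 11.7 FPKM in hepatocytes and at most 0.103 at day 3, 0.419 at day 14 and 0.207 in passaged cells. No cultured IL6-iHPC sample overlapped with hepatocytes for either gene. The difference at day 3 was -5.12 ± 0.12 for Slco2b1 (adjusted p = 4.66e-26) and -3.53 ± 0.08 for Slco1a4 (adjusted p = 1.34e-25).

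Among the exporters, Abcc4 rose most. It was barely detected in hepatocytes, at 0.0497, 0.0556 and 0.0997 FPKM, but was 30.4, 23.6 and 31.3 at day 3 and 34.4, 31.5 and 36.9 at day 14. Every cultured sample exceeded every hepatocyte sample, and mean FPKM was 416-fold higher at day 3 (difference 4.78 ± 0.11, adjusted p = 7.98e-26). In passaged IL6-iHPCs it was 11.7 to 14.9 FPKM in mouse-1 (P10), 15.2 to 16.5 in mouse-2 (P10), 21.1 to 25.5 in clone-1 (P20) and 50.6 to 52.5 in mouse-1 (P35), the highest of the 11 groups.

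Abcb4, the phosphatidylcholine exporter, was 33.8, 38.3 and 35.6 FPKM in hepatocytes, 6.204, 6.33 and 5.67 at day 3 and 2.54, 2.74 and 2.37 at day 14, each group below the one before without overlap. The difference from hepatocytes was -2.38 ± 0.07 at day 3 (adjusted p = 4.95e-23) and -3.38 ± 0.07 at day 14 (adjusted p = 1.04e-26). It was lowest in the passaged groups mouse-1 (P35), at 0.222 to 0.249 FPKM, and clone-1 (P20), at 0.154 to 0.197, which are also the groups with no read of Slco1b2.

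Abcc2 and Abcc3 did not pass the 2-fold threshold in any of these comparisons of means. Abcc2 was 29.4 to 38.3 FPKM in hepatocytes, 51.8 to 53.4 at day 3 and 50.6 to 53.04 at day 14, a difference of 0.65 ± 0.10 at day 3 without overlap (adjusted p = 2.77e-07) that became -0.80 after all samples were given equal medians. Abcc3 was 35.5 to 46.2 FPKM in hepatocytes, 54.1 to 57.1 at day 3 and 68.1 to 70.9 at day 14, where its difference of 0.77 ± 0.10 became -0.54 with equal medians, and -1.02 at day 3. In passaged cells Abcc2 ranged from 11.003 to 42.5 FPKM and Abcc3 from 38.6 to 116. Of single lines, Abcc2 was called lower in mouse-1 (P35) (-1.47) and mouse-2 (P10) (-1.11), and Abcc3 higher in clone-1 (1.47). With quantile normalization the mean of the 4 passaged lines was also called lower for Abcc2 (-1.09), as with equal medians (-1.91), where Abcc3 was -0.50.

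Line by line against hepatocytes, 7 of the 9 genes were called in IL6-iHPCs of mouse-1 (P10), where 52.6% of all genes were, 8 in mouse-1 (P35) (66%), 8 in mouse-2 (P10) (55.9%) and 8 in clone-1 (P20) (61.9%). The carriers, Abcb4 and Abcc4 made up 7 of these in each line. Each count includes Slc22a7, for which the filter fixed the direction.

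From day 3 to day 14 none of the 9 genes was called by limma on log2(FPKM + 1), where 10.2% of all genes were (5.12% as higher and 5.05% as lower), although 6 of the 9 had an unadjusted p under 0.05. Abcb4 came closest, with a difference of -0.99 ± 0.07, which passed 2-fold without the day 3 replicate 3 or the day 14 replicate 2 (-1.04 and -1.03). Calls were made for 4 genes with a pseudocount of 0.1 and for the same number with limma voom on recovered reads, in both cases Slco1a1 and Slco1a4 as higher and Slc22a7 and Abcb4 as lower at day 14.

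**Figure D3:**
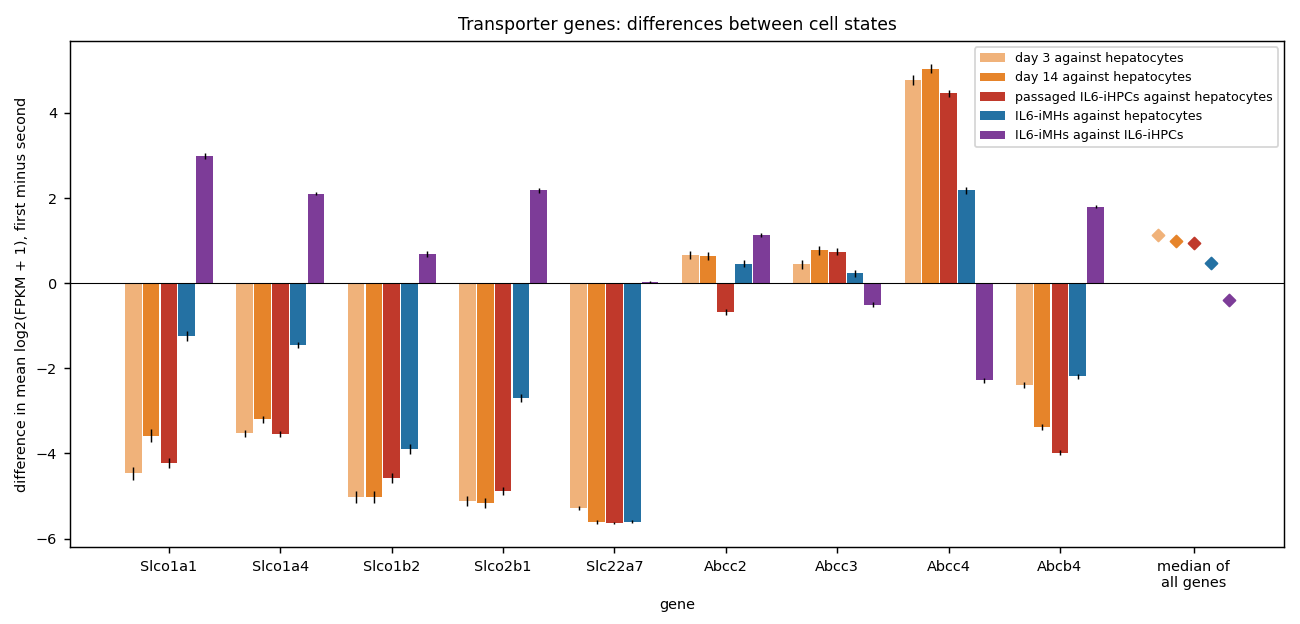
Difference in mean log2(FPKM + 1) (y axis) for each gene (x axis) in 5 comparisons, with SE as error bars, and diamonds at the right for the median of all genes tested in the same comparison. The uptake genes and Abcb4 lie below 0 in each comparison with hepatocytes and Abcc4 above 0, and Slco1a1, Slco1a4, Slco2b1, Abcc2 and Abcb4 rise from IL6-iHPCs to IL6-iMHs.

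Maturation of the passaged cells brought part of the set back. Over the 4 lines, 5 genes were higher in IL6-iMHs than in IL6-iHPCs and 1 was lower, where 28.1% of all genes were called, 6.68% as higher and 21.4% as lower. Slco1a1 rose by 2.98 ± 0.07 (adjusted p = 5.00e-25), Slco1a4 by 2.11 ± 0.04 (adjusted p = 2.88e-27), Slco2b1 by 2.18 ± 0.06 (adjusted p = 3.14e-24), Abcc2 by 1.13 ± 0.05 (adjusted p = 1.98e-19) and Abcb4 by 1.80 ± 0.04 (adjusted p = 3.67e-27). Abcc4 was lower (-2.28 ± 0.06, adjusted p = 3.35e-25). The same 5 rises and 1 fall were called without clone-1, where Slco1a1 differed by 3.88 and 33.2% of all genes were called. Slco1b2, at 0.69 ± 0.07, and Slc22a7, at 0.03 ± 0.02 (adjusted p = 0.175), did not pass, although Slco1b2 was called with equal medians (1.23), with a pseudocount of 0.1 (1.77) and with voom (4.28), and Slc22a7 with voom (1.77).

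Against hepatocytes, IL6-iMHs still had 6 genes lower and 1 higher, where 32.6% of all genes were called, 7.79% as lower and 24.8% as higher. The count of 6 includes Slc22a7, for which the filter fixed the direction. Slc22a7 stood at 0 to 0.0673 FPKM in the 12 IL6-iMH libraries and Slco1b2 at 0.113 to 3.96, both with no overlap with hepatocytes. The difference was -5.60 for Slc22a7, not tested for the same reason, -3.89 ± 0.12 for Slco1b2 (adjusted p = 4.21e-23) and -2.70 ± 0.09 for Slco2b1 (adjusted p = 1.83e-21). Abcb4 remained below hepatocytes (-2.19 ± 0.06), and Abcc4 was 61.5-fold above them in mean FPKM. Slco1a1 (-1.25 ± 0.12) and Slco1a4 (-1.44 ± 0.07) were called only with clone-1 in the mean: without it they were -0.21 (adjusted p = 0.101) and -0.82, and 4 genes were lower and 1 higher, where 29.2% of all genes were called.

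How far each gene came back differed between the lines. The change on maturation differed between the 4 lines for 8 of 9 genes (limma F test of the interaction, adjusted p from 1.37e-22 for Abcb4 to 1.44e-05 for Abcc3), as it did for 96.3% of all genes. Slc22a7 did not pass (adjusted p = 0.673). For clone-1 the change is between libraries that differ in Y-linked transcripts. Within a line, 4 of the 9 genes were called on maturation in mouse-1 (P10), where 25% of all genes were, 7 in mouse-1 (P35) (45.3%), 5 in mouse-2 (P10) (39.9%) and 3 in clone-1 (P20) (23.6%). Against hepatocytes, 5 genes were called in matured mouse-1 (P10) (32.6% of all genes), 6 in matured mouse-1 (P35) (35.2%), 6 in matured mouse-2 (P10) (25.2%) and 7 in matured clone-1 (P20) (45.3%). Each count against hepatocytes includes Slc22a7, for which the filter fixed the direction.

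**Figure D4:**
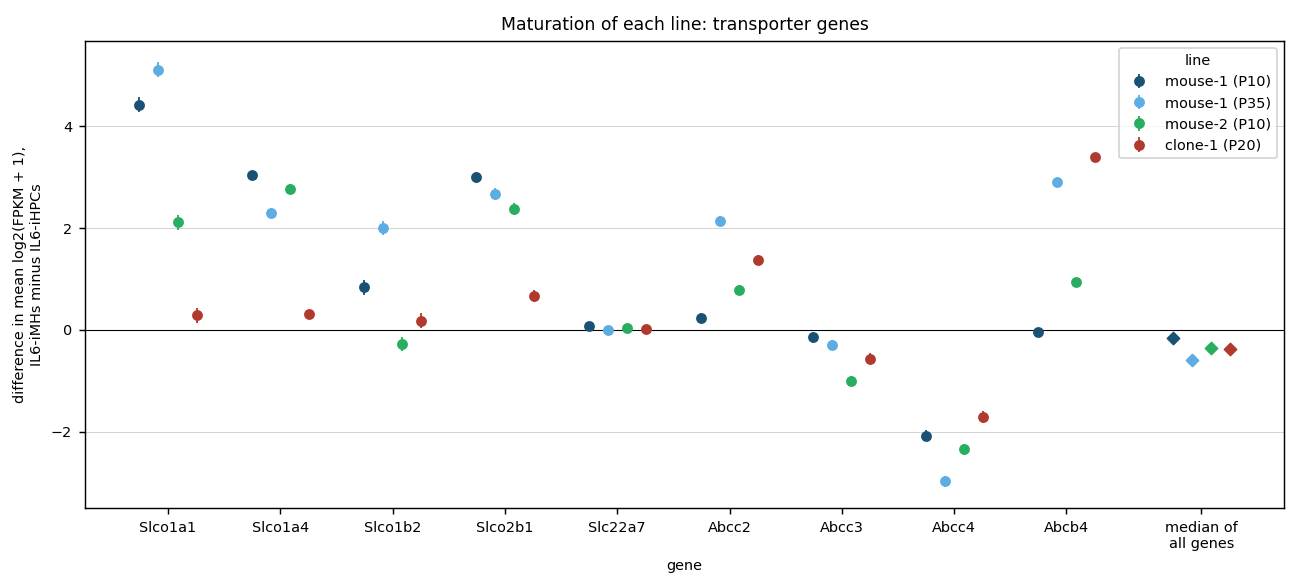
Change in mean log2(FPKM + 1) from IL6-iHPCs to IL6-iMHs (y axis) for each gene (x axis) and line as labelled (colour), with SE as error bars. Diamonds show the median of all genes in that line. Clone-1 lies between 0.01 and 0.66 for the 5 uptake genes and highest of the lines for Abcb4, and Abcc4 lies below 0 in all 4 lines.

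Slco1a1 reached 28.2, 28.97 and 32.7 FPKM in IL6-iMHs of mouse-1 (P10), above every hepatocyte sample, and 38.97, 37.9 and 27.03 in those of mouse-1 (P35), which overlapped with hepatocytes by 1 sample. The difference from hepatocytes was 0.29 (95% interval -0.01 to 0.60) and 0.48 (0.17 to 0.78). Matured mouse-2 (P10) had 6.33, 7.34 and 12.97 FPKM, between its IL6-iHPCs and hepatocytes, and matured clone-1 had 0.147, 0.276 and 0.288. In order of level, matured mouse-1 (P35) and mouse-1 (P10) overlapped, followed by hepatocytes, by matured mouse-2, and by all other groups at or under 1.39. Y-linked transcripts were at 0 in all 4 matured lines, those with high and those with low Slco1a1, and their part in this was not tested.

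Slco1a4 was 7.87 to 9.39 FPKM in matured mouse-1 (P10), 5.79 to 7.09 in matured mouse-2 and 3.05 to 4.79 in matured mouse-1 (P35), each group apart from the next and all below hepatocytes. Matured clone-1 had 0.217 to 0.276. Slco2b1 was 9.02 to 11.6, 8.45 to 10.8 and 4.76 to 6.14 FPKM in the same groups, of which the first 2 overlapped, and 0.604 to 0.697 in clone-1.

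Slco1b2 came back least of the Slco genes, to 2.27, 2.29 and 1.88 FPKM in mouse-1 (P10) and 3.55, 3.96 and 1.84 in mouse-1 (P35). In mouse-2 it was 0.693, 0.835 and 1.49 FPKM after and 1.52, 1.58 and 1.12 before maturation, which overlapped (-0.28, 95% interval -0.58 to 0.02).

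Matured clone-1 was low in the carriers but not in the exporters. It had the highest Abcc2 of the 11 groups, 63.2 to 67.5 FPKM, and the highest Abcb4 after hepatocytes, 11.7, 11.2 and 11.02 against 0.1695, 0.197 and 0.154 in IL6-iHPCs-clone-1 (P20) (difference 3.39 ± 0.07, adjusted p = 8.98e-26). Its Slco1a1, Slco1a4, Slco1b2 and Slco2b1 differed from those of the libraries labelled as unmatured clone-1 by 0.18 to 0.66 on the log2(FPKM + 1) scale, under the 2-fold threshold. On FPKM none of the 4 overlapped: Slco1a1 was at least 0.147 after and at most 0.0268 before, Slco1a4 0.217 to 0.276 after and at most 0.0105 before, Slco2b1 0.604 to 0.697 after and at most 0.0569 before, and Slco1b2 0.113 to 0.172 after with no read before. Its hepatocyte markers summed to 63894 to 67866 FPKM, within the range of the other matured lines. The pair does not share the expression of Y-linked genes.

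Abcc4 was lower after maturation in each line as labelled, at 2.04 to 2.68 FPKM in mouse-1 (P10), 1.801 to 2.64 in mouse-2, 4.97 to 6.196 in mouse-1 (P35) and 5.37 to 7.42 in clone-1. No matured sample overlapped with an unmatured one, and none came down to the hepatocyte level. Abcb4 in mouse-1 (P10) was 4.89 to 5.97 FPKM before and 5.02 to 5.64 after (-0.04, 95% interval -0.19 to 0.11), whereas in mouse-1 (P35) it was 0.222, 0.235 and 0.249 before and 8.31, 7.85 and 8.65 after. Abcc3 passed the threshold in mouse-2, at 60.8 to 65.1 FPKM before and 29.4 to 32.6 after (adjusted p = 2.99e-10), and not in the other lines.

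Passage 10 and passage 35 of the mouse-1 line were compared directly. Between passage 10 and passage 35, IL6-iHPCs had less Abcb4 (-2.40 ± 0.07, adjusted p = 2.00e-22) and less Abcc2 (-1.74 ± 0.10, adjusted p = 3.43e-16), at 38.4 to 42.5 FPKM before and 11.003 to 12.005 after, and more Abcc4 (1.90 ± 0.11, adjusted p = 1.71e-15), so 3 of the 9 genes were called, a share close to the 33.7% of all genes. The 4 Slco carriers were lower too in FPKM, with Slco1b2 at 0.432 to 1.09 at passage 10 and no read at passage 35 and Slco1a1 as given above, but these low levels stayed under 2-fold on the log2(FPKM + 1) scale. After maturation, Abcc4 was the 1 gene of the 9 called between the passages (1.00 ± 0.11, adjusted p = 1.08e-08, with 6.21% of all genes called), while Slco1a1 differed by 0.19 (95% interval -0.12 to 0.49).

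Related transporters, from lists chosen with earlier results known, gave the surroundings of these changes. Of 25 other uptake carriers, 15 could be tested in the cell data, and in passaged IL6-iHPCs 5 were lower and 2 higher than in hepatocytes, with a median of -0.25 (11.3% of all genes were lower and 48.1% higher, with a median of 0.93). Without clone-1 the counts were 6 and 2. Among those that fell was Slc10a1 (NTCP, the bile acid carrier, 2.89 against 279 FPKM, difference -6.68), and the rises were in Slco3a1 (28.6 against 0.2199 FPKM, difference 4.48) and Slco2a1 (the prostaglandin carrier, 238 against 27.6 FPKM, difference 3.05). On maturation 3 rose and none fell, Slc10a1 by 2.69 to 22.2 FPKM, Slc22a18 by 1.35 and Slco1a6 by 1.05 (6.68% of all genes rose and 21.4% fell). Without clone-1, 5 rose and none fell.

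Of 16 other exporters, 15 were tested. In passaged IL6-iHPCs 9 were higher and 5 lower, against 48.1% and 11.3% of all genes, with a median of 1.49. The counts were the same without clone-1. Abcc5 (57.5 against 0.112 FPKM, difference 5.63) and Abcc1 (19.4 against 0.0676 FPKM, difference 4.16), both broadly expressed relatives of Abcc4, rose most, while Abcb11, the canalicular bile salt export pump (0.147 against 87.2 FPKM, difference -6.27), and Slc47a1, a cation exporter (0.472 against 42.2 FPKM, difference -4.93), fell most. On maturation 5 fell, led by Abcc5 (-1.58) and Abcb1b (-1.45), and Abcg5, a subunit of the canalicular sterol pump, rose by 1.36. Of all genes, 21.4% fell and 6.68% rose. Without clone-1, 4 of these exporters fell and 3 rose.

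Of 15 regulators of these genes, 4 were higher and 4 lower in passaged IL6-iHPCs, where 48.1% of all genes were higher and 11.3% lower. Nfe2l2 (NRF2, the oxidative stress factor, 73.3 against 7.78 FPKM, difference 3.06) and Ahr (2.04) rose most, and Nr0b2 (SHP, 0.338 against 74.2 FPKM, difference -5.88) and Nr1i3 (CAR, the drug-sensing receptor, 0.449 against 22.4 FPKM, difference -4.07) fell most. On maturation Ppara rose by 2.17 and Nr1i3 by 1.00, while Nfe2l2 was lower (-1.43), and without clone-1, 2 rose and 4 fell. Of 12 genes of the NRF2 battery, 5 were higher and 2 lower in passaged IL6-iHPCs (5 and 3 without clone-1), against the same 48.1% and 11.3% of all genes. The changes were led by Hmox1 (3.38) and G6pdx (2.81) and by Gsta4 (-2.73) and Gstm1 (-1.89). On maturation 3 fell, led by Gclc (-1.27) and Gsr (-1.03), and Gstm1 rose (1.91), and without clone-1, 6 fell and 3 rose. Of all genes, 21.4% fell and 6.68% rose on maturation over the 4 lines.

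Several genes had group means close to those of a transporter over the 11 cell groups. By Pearson's r of log2(FPKM + 1), the nearest to Slco1a1 were Ppp1r3c (0.966) and Cyp4f15 (0.962), to Slco1a4 Bhmt (0.991) and Car5a (0.982), to Slco1b2 Slc22a30 (0.977) and C2cd2 (0.968), and to Slco2b1 Car5a (0.988) and Pxmp2 (0.983). Slc22a7 was followed by Gm21320 and Mup1. The nearest to Abcc2 were Cdip1 (0.860) and Pik3ap1 (0.828), to Abcc3 Ppp1r13b (0.923) and Tmem151a (0.916), to Abcc4 Vac14 (0.994) and Mapk7 (0.994), and to Abcb4 Pqlc1 (0.932) and Abhd3 (0.921). These are descriptions over groups that share lines and depth, and say nothing of shared control.

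In regenerating liver the same genes changed less, and not as one set. At 6 hours none of the 9 genes was called by limma (16.3% of all genes were, 4.78% as higher and 11.5% as lower), and 1 of the 9 had an unadjusted p under 0.05. At 24 hours again none was called (7.9% of all genes, 3.74% as higher and 4.16% as lower), with 3 of the 9 at an unadjusted p under 0.05. At 3 days 2 genes were lower (5.82% of all genes called, 3.33% as higher and 2.49% as lower), at 7 days 1 was higher (8.84%, 7.81% as higher and 1.03% as lower) and at 14 days 1 was lower (2.98%, 0.981% as higher and 2% as lower). All 5 comparisons share the 3 normal livers.

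PHX-D3 replicate 2 stood apart and widened the error of every liver comparison, since the spread is estimated over all groups. It had 0.696 FPKM of Slco1a1 and 0.398 of Slc22a7, where the other replicates had at least 31.9 of Slco1a1 and at least 22.8 of Slc22a7. Its biliary markers summed to 155 FPKM against 58.1 and 40.1, its Kupffer cell markers to 320.4 against 190.5 and 125.6, and its red blood cell markers to 305.8 against 98.7 and 39.7. Its hepatocyte markers were the lowest of the 3 samples, and the part of these cells was not tested. Without it the calls were none at 6 hours (16.7% of all genes called), Slco1a1 and Slc22a7 lower at 24 hours (8.81%), Slco1a1 lower at 3 days (4.16%), Slco1a1 and Slco1b2 lower and Abcc4 higher at 7 days (9.32%), and Slco1a1 and Slco1b2 lower at 14 days (3.5%). Except at 3 days, this setting was chosen after the values were seen.

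**Figure D5:**
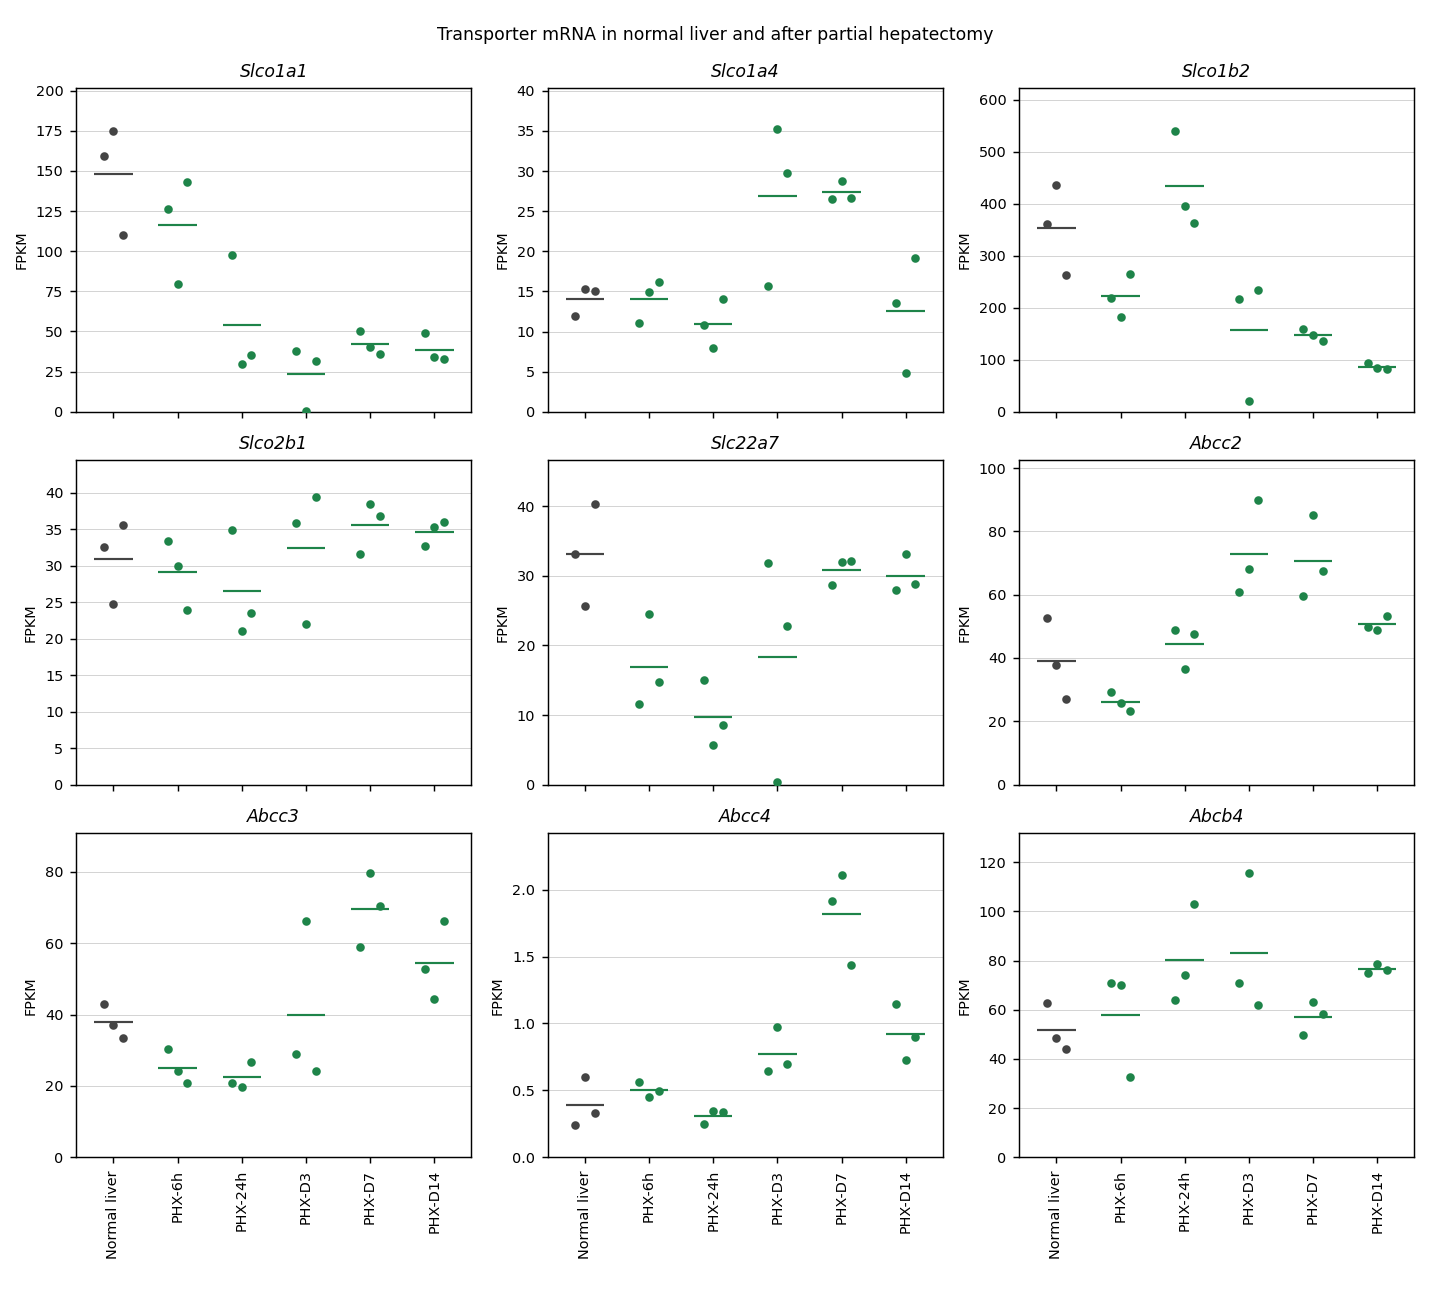
FPKM (y axis) of each gene in the 18 liver samples, with 1 point per sample, a line at each group mean and the 6 groups in time order on the x axis. Slco1a1 and Slco1b2 end below normal liver at day 14, and 1 PHX-D3 sample lies apart from its group for Slco1a1, Slco1b2, Slc22a7, Abcc3 and Abcb4.

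Slco1a1 was 159, 175 and 110.1 FPKM in normal liver, 126, 79.7 and 143 at 6 hours, 97.9, 29.7 and 35.1 at 24 hours and 37.95, 0.696 and 31.9 at 3 days. It stayed low at 50.2, 40.6 and 35.7 FPKM at 7 days and 49.1, 34.3 and 32.9 at 14 days. From 24 hours on, no sample reached the lowest normal liver. The difference was -3.50 ± 0.82 at 3 days (adjusted p = 0.00651), or -2.03 ± 0.39 without PHX-D3 replicate 2 (adjusted p = 0.00181). In a limma fit of only the compared groups, the 3-day difference of Slco1a1 was not called (adjusted p = 0.105). Y-linked transcripts were present in every liver, at 46.2 to 66.7 summed FPKM in normal liver and 17.2 to 21.0 at 14 days, and their part in this was not tested. At 14 days the difference of Slco1a1 was -1.90 ± 0.82 (adjusted p = 0.131), or -1.90 ± 0.34 without that sample (adjusted p = 0.00113).

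Slco1b2 was 361, 436 and 262 FPKM in normal liver, the highest level of the 9 genes, and 541, 397 and 363 at 24 hours, where the groups overlapped (0.30 ± 0.61, adjusted p = 0.733). It was 159, 148 and 135 FPKM at 7 days and 93.03, 84.5 and 81.9 at 14 days, below every normal liver. The difference was -1.99 ± 0.61 at 14 days (adjusted p = 0.0355), and -1.99 ± 0.18 without PHX-D3 replicate 2 (adjusted p = 6.63e-06). With that library in the fit, leaving out any 1 of the 6 samples compared ended the 14-day call, with adjusted p from 0.052 (normal liver replicate 3) to 0.132 (normal liver replicate 2). At 3 days Slco1b2 was 216, 20.2 and 233 FPKM, and the call (-1.76 ± 0.61, adjusted p = 0.0414) rested on replicate 2, without which the difference was -0.62. It also ended without normal liver replicate 1, 2 or 3 (adjusted p from 0.0654 to 0.122) and with quantile normalization (adjusted p = 0.0679).

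Slc22a7 dipped and returned. It was 33.2, 25.6 and 40.4 FPKM in normal liver, 11.6, 24.5 and 14.7 at 6 hours and 15.02, 5.63 and 8.52 at 24 hours, both below every normal liver. It was 28.7 to 32.1 at 7 days and 27.96 to 33.1 at 14 days, within the normal range. At 24 hours the difference was -1.74 ± 0.79 (adjusted p = 0.1), and -1.74 ± 0.28 without PHX-D3 replicate 2 (adjusted p = 0.000203). At 3 days it was 31.9, 0.398 and 22.8 FPKM, and it was called lower without PHX-D3 replicate 1 (-2.54) or replicate 3 (-2.31), which both keep the sample that stood apart.

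Slco1a4 was 11.9 to 15.3 FPKM in normal liver and 26.5 to 28.8 at 7 days, above every normal sample, but its difference of 0.92 ± 0.36 did not pass (adjusted p = 0.0704). Without PHX-D3 replicate 1, Slco1a4 was called higher at 3 days (1.16). At 14 days its samples spread from 4.81 to 19.1. Slco2b1 overlapped with normal liver (24.7 to 35.6 FPKM) at each time, for example at 21.1 to 34.9 at 24 hours and 32.7 to 35.99 at 14 days.

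Abcc4 was the exporter called after surgery. It was 0.245, 0.602 and 0.334 FPKM in normal liver and 1.91, 2.11 and 1.43 at 7 days, with no overlap (1.02 ± 0.12, adjusted p = 1.52e-05), and 0.725 to 1.15 at 14 days. The 7-day difference fell under 2-fold with equal medians (0.81), with quantile normalization (0.72) and without normal liver replicate 1 or 3 or PHX-D7 replicate 1 or 2 (0.94 to 0.99), each at an adjusted p of at most 0.000281. The 6 Kupffer cell markers summed to 697 to 1016 FPKM at 7 days against 110 to 192 in normal liver, and their part in this was not tested.

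Abcc2 was 27.1 to 52.6 FPKM in normal liver, 60.9 to 89.8 at 3 days and 59.6 to 85.3 at 7 days, both above normal with no overlap, by 0.91 ± 0.21 (adjusted p = 0.0057) and 0.87 ± 0.21 (adjusted p = 0.00545), under 2-fold. Without normal liver replicate 1 both passed 2-fold (1.15 and 1.11), as the 3-day difference did without PHX-D3 replicate 1 (1.03) and with quantile normalization (1.11). Abcc3 was 33.3 to 42.9 FPKM in normal liver, 20.8 to 30.5 at 6 hours, 19.7 to 26.6 at 24 hours and 58.8 to 79.6 at 7 days, below and later above normal liver without overlap, and its 7-day difference was 0.86 ± 0.28 (adjusted p = 0.0315). Abcb4 was 44.04 to 62.8 FPKM in normal liver and 63.98 to 103 at 24 hours, with no overlap and a difference of 0.61 ± 0.28 (adjusted p = 0.103). At 14 days Abcb4 was 74.9 to 78.7 FPKM, again above every normal liver (0.57 ± 0.28, adjusted p = 0.183).

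Among related genes at 6 hours, 3 of 15 other uptake carriers were higher and 3 lower, where 4.78% of all genes were higher and 11.5% lower. Slc22a5, the carnitine carrier (65.1 against 6.704 FPKM, difference 3.09), and Slc16a10 (1.35) rose most, and Slc29a1, a nucleoside carrier (14.4 against 82.01 FPKM, difference -2.44), and Slc22a28 (-1.46) fell most. Of 14 other exporters tested 3 were higher and 3 lower, led by Abca1 (2.43) and Slc51b (2.14) and by Abcc6 (-1.58) and Atp7b (-1.40). Of 15 regulators Stat3 was higher (79.8 against 24.6 FPKM, difference 1.64), and 4 were lower, led by Nr1h4 (FXR, the bile acid receptor, -1.59) and Nr1h3 (-1.44). At 7 days, when Abcc4 was called, 5 of 11 genes of the NRF2 battery were higher and none lower (7.81% and 1.03% of all genes), led by Nqo1 (19.3 against 3.03 FPKM, difference 2.35) and Gsta1 (2.32), and no regulator was called.

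Over the 6 liver groups, where so few points leave many genes close to any pattern, the nearest group means were those of Ugt2a3 and Ndufb3 for Slco1a1 (r of 0.973 and 0.971), Tpcn2 and Rcn2 for Slco1a4, Nkiras1 and B230118H07Rik for Slco1b2, Eef2 and Plg for Slco2b1, and Trap1 and Cyp4f14 for Slc22a7. For the exporters they were Fam57a and Hs2st1 (Abcc2), Ube2q1 and 9530068E07Rik (Abcc3), Golga2 and Nsf (Abcc4), and Igsf23 and Ttc17 (Abcb4).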

How the data were processed

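RNA was sequenced from 60 samples, and the 51 of the cell and liver data were analysed. Per the labels the authors' processing named TopHat 1.4.1, Cufflinks 1.3.0 and the build mm10, and the deposited values are FPKM per gene. A further table holds none of the 9 genes and was not used. Low values are whole multiples of 1 read, and whole reads were recovered for 18829 of 18830 and 17330 of 17331 genes above 0, within a relative misfit of 0.003. They give the depth and the input of voom.

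Genes with at least 1 FPKM in 3 samples were kept (12328 and 11114), and limma 3.58.1 with a trend, in R 4.3.3, was fitted to log2(FPKM + 1) with all groups of a table in 1 fit and Benjamini-Hochberg adjustment over all genes tested. Means over lines weight the 4 lines equally. The steps were tested on simulated data. Groups come from sample titles. The 9 genes and the gene lists were chosen with earlier results of these data known. At most 2 rises and 2 falls with the greatest difference were named from a list (1 gene that this would name is not reported here), and 2 genes with the highest r from group means for each transporter. Of the 50-base stretches of the transcripts, 5.89% for Slco2b1, 2.87% for Abcb4, 1.64% for Slco1a1, 1.61% for Slco1a4 and at most 0.154% for the others also occur in another gene, so their reads are uncertain to that extent. Whether counting used strand is not given in the sources used here. Floors of 3 reads cover counting error only, and the 95% intervals come from the spread between samples in the limma fit.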

Additional observations from a re-analysis of the deposited data

Results flagged for a closer look

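The change from IL6-iHPCs to IL6-iMHs differed between the 4 lines for 8 of the 9 genes by the limma F test of the interaction, as it did for 96.3% of all genes. The gap between the line with the highest and the line with the lowest change, on the log2(FPKM + 1) scale, was 4.82 for Slco1a1, 2.73 for Slco1a4, 2.28 for Slco1b2 and 2.33 for Slco2b1 among the carriers. Clone-1 had the lowest change for Slco1a1, Slco1a4 and Slco2b1, and mouse-2 (P10) for Slco1b2. Among the exporters the gap was 3.43 for Abcb4, with mouse-1 (P10) lowest and clone-1 highest, 1.91 for Abcc2, 1.26 for Abcc4 and 0.86 for Abcc3. The samples of a group are technical repeats, and the libraries labelled clone-1 before and after maturation differ in the expression of Y-linked genes, whose part in this was not tested.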

How the results depend on the processing

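The number of genes called, 6 on maturation and 7 in the comparisons with hepatocytes, stayed within 1.5 times of that under each alternative. The 7 include Slc22a7, for which the filter fixed the direction. Without clone-1, IL6-iMHs had 4 genes lower and 1 higher than hepatocytes. The 8 genes whose maturation differed between lines stayed 8, where 96.3% of all genes differed in the main fit. Leaving out 1 library gave 6 to 7 genes against hepatocytes, since Slc22a7 then dropped out of the test without a hepatocyte sample, and 6 on maturation. From day 3 to day 14 the count of 0 became 4 with a pseudocount of 0.1 or voom, 1 with equal medians, 6 with no fold threshold and 0 to 1 without 1 library. At 6 hours after hepatectomy it was 1 with no fold threshold, and 0 to 0 without 1 library. At 24 hours it was 2 with only the compared groups in the fit, and 0 to 2 without 1 library. At 3 days the count of 2 became 1 with no filter, 4 with no fold threshold, 1 at 4-fold, 0 with only the compared groups and 1 to 5 without 1 library. At 7 days the count of 1 became 0 with a filter at 5 FPKM, quantile normalization, equal medians or 4-fold, 3 with no fold threshold or only the compared groups, and 0 to 3 without 1 library. At 14 days the count of 1 became 2 with a pseudocount of 0.1, voom, no fold threshold or only the compared groups, 0 with no filter or 4-fold, and 0 to 2 without 1 library. Leaving out PHX-D3 replicate 2 from all liver comparisons, an alternative chosen after seeing the data, gave 2 genes at 24 hours, 3 at 7 days and 2 at 14 days. With quantile normalization the 3-day count stayed 2, but Abcc2 was called (1.11) in place of Slco1b2. The causes were not tested.

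Differences that changed sign were small in size or lay under the shift of all genes. With quantile normalization these were Abcc2 from day 3 to day 14 (0.069), Slco1a4 (0.26) and Slco2b1 (0.14) at 6 hours, Abcc3 at 3 days (0.11) and Abcb4 at 7 days (-0.026). With equal medians against hepatocytes they were Abcc2 (-0.80) and Abcc3 (-1.02) at day 3, Abcc2 (-0.68) and Abcc3 (-0.54) at day 14, Abcc3 in passaged IL6-iHPCs (-0.50), and Abcc2 (-0.23) and Abcc3 (-0.46) in IL6-iMHs. They were also Slco1b2 (0.13), Slco2b1 (0.095) and Abcc2 (0.12) from day 3 to day 14, Abcc3 on maturation (0.042), Slco1a4 (0.28) and Slco2b1 (0.21) at 6 hours, Slco2b1 at 3 days (-0.011) and Abcb4 at 7 days (-0.060). Without 1 library, Slco1b2 from day 3 to day 14 ran from -0.026 to 0.0082. In liver, Slco1a4 ran from -0.12 to 0.14, Slco2b1 from -0.23 to 0.044 and Abcb4 from -0.093 to 0.46 at 6 hours, Abcc2 from -0.020 to 0.44 and Abcc4 from -0.16 to 0.024 at 24 hours, Slco2b1 from -0.12 to 0.29 and Abcc3 from -0.49 to 0.22 at 3 days, Slc22a7 from -0.24 to 0.078 at 7 days, and Slc22a7 from -0.29 to 0.032 and Slco1a4 from -0.70 to 0.19 at 14 days.

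Samples with the same replicate number did not deviate together on average (mean r of -0.0150 over 165 pairs in the cell data and -0.0302 over 45 in the liver data). Single pairs ran from -0.536 to 0.573 in the cell data and from -0.299 to 0.386 in the liver data. A mean over all groups cannot show whether particular groups are paired. With the replicate number as a block, 7, 7, 0, 7, 6 and 7 of the 9 genes were called in the cell comparisons and 0, 0, 2, 1 and 1 in liver, and no call of a gene changed. Depth limits the values near 0, where 3 reads of Slc22a7 stand for 0.0198 FPKM or more.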

Other observations

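Levels in freshly isolated hepatocytes and normal liver come from tables normalized separately and were not tested against each other. Slco1b2 was 33.4 ± 4.77 FPKM (SD, n = 3) in hepatocytes and 353 ± 87.3 in normal liver, a ratio of 10.6, and Slco1a1 was 24.5 ± 4.17 and 148 ± 33.8, a ratio of 6.04. The other carriers were close, with ratios of 1.22 for Slco1a4, 0.824 for Slco2b1 and 0.677 for Slc22a7. Among the exporters, Abcc2 (1.17), Abcc3 (0.928) and Abcb4 (1.44) were close too. Abcc4 was low in both, at 0.0684 FPKM in hepatocytes and 0.393 in normal liver, a ratio of 5.755.

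Slco1a6, a neighbour of Slco1a1 in the cluster on chromosome 6, was at 0 FPKM in every hepatocyte and normal liver sample. It was 3.10 to 3.32 in matured mouse-1 (P10), 4.75 to 6.55 in matured mouse-1 (P35) and 1.64 to 2.79 in matured mouse-2. Before maturation it was 1.22 to 1.68 in mouse-1 (P10), 0.924 to 1.07 in mouse-2 (P10) and at most 0.1325 in the other IL6-iHPC groups. Like Slco1a1, it was low in matured clone-1, at 0.0813 to 0.161. Gys2, which lies beyond the cluster with other genes between them and encodes liver glycogen synthase, was 18.6 to 19.7 FPKM in matured clone-1, 30.3 to 31.8 in matured mouse-1 (P35), 74.7 to 86.5 in matured mouse-1 (P10), 77.9 to 89.8 in matured mouse-2 and 39.5 to 43.0 in hepatocytes.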
